A study of Mus musculus with 11 samples.

Results

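The genes described here are Mfsd2a, Cav1, Cav2, Cavin1, Cavin2, Cavin3 and Plvap, which were chosen by name from 32287 listed features as the genes through which endothelial cells hold back or carry out vesicular transport across the vessel wall. All 7 were found once each in the feature list. Their counts were summed per mouse over arterial, capillary, venous and fenestrated endothelial cells, smooth muscle cells (SMC) and pericytes, and the comparisons asked how their levels differed between these cell classes and between CADASIL and control mice.

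The CADASIL mice were 6 R182C-TgN3 animals (line Tg350, genotype TgN3 R182C), and the control mice were 5 WT-TgN3 animals (line Tg100, genotype TgN3). Both genotypes carry a human NOTCH3 transgene beside the mouse gene, with the R182C variant in the CADASIL mice, so neither group was a wild type without a transgene, and each genotype is 1 transgenic line. The mice were untreated, and microvascular fragments of the brain were taken with beads carrying CD31 antibody, which favours endothelial cells and what adheres to them. Of the R182C-TgN3 mice, 3 were 6 months old (2 females and 1 male) and 3 were 9 months old (2 females and 1 male). Of the WT-TgN3 mice, 3 were 6 months old (2 females and 1 male) and 2 were 9 months old (1 female and 1 male). The labels put the mice in 4 batches, numbered here in date order. The 6-month mice came from batches 3 and 4 and the 9-month mice from batches 1 and 2, so age and batch cannot be told apart. Mice are numbered in turn within their genotype.

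Brain endothelium forms the blood–brain barrier, and one of its features is a low rate of transcytosis, the passage of cargo through the cell in vesicles. Mfsd2a is a lysophospholipid transporter that brings docosahexaenoic acid into the brain and keeps caveolar transcytosis low through the lipids it places in the endothelial membrane. Caveolae are flask-shaped pits of the plasma membrane, built from caveolins (Cav1, Cav2) and coated by cavins (Cavin1, Cavin2, Cavin3). Plvap forms the diaphragms of fenestrae and of endothelial caveolae and is a classic marker of endothelium outside the barrier.

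On mm10 (GENCODE vM21), Mfsd2a lies on chromosome 4 at 122946850 to 122961188 on the minus strand. Cav2 and Cav1 are neighbours on the plus strand of chromosome 6, at 17281185 to 17289115 and at 17306335 to 17341452. Cavin1 lies on chromosome 11 at 100956733 to 100970887 (minus strand), Cavin2 on chromosome 1 at 51289126 to 51302960 (plus strand), Cavin3 on chromosome 7 at 105480083 to 105482300 (minus strand) and Plvap on chromosome 8 at 71497765 to 71511752 (minus strand). The 250 bases before a RefSeq start of transcription are shown for 4 members whose order across the cell classes differed most plainly, Mfsd2a with its capillary peak, Cav1 at similar levels in 3 endothelial classes, Cavin1 with its SMC peak and Cavin2, which was near absent from SMC. They are RefSeq promoter windows on GRCm38.p6, read 5′ to 3′ on the gene's own strand, at chr4:122961189-122961438, chr6:17306085-17306334, chr11:100970616-100970865 and chr1:51288876-51289125. The Cavin1 window lies inside the GENCODE interval given above, because RefSeq places this start further into the gene. Capitals mark a CCAAT box (CCAAT, or ATTGG where it lies on the opposite strand).
Mfsd2a: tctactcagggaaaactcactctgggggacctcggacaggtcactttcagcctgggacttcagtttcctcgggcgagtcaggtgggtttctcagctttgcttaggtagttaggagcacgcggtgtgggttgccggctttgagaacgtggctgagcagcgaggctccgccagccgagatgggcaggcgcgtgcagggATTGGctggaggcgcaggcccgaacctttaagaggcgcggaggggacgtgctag
Cav1: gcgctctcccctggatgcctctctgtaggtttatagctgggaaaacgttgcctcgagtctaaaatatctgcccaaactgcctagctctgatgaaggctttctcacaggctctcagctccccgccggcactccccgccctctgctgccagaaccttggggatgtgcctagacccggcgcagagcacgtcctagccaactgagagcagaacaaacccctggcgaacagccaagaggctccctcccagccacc
Cavin1: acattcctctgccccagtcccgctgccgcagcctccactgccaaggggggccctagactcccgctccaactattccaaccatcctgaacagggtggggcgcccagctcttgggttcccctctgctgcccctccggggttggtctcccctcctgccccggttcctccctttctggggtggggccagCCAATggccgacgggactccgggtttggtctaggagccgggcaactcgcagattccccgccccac
Cavin2: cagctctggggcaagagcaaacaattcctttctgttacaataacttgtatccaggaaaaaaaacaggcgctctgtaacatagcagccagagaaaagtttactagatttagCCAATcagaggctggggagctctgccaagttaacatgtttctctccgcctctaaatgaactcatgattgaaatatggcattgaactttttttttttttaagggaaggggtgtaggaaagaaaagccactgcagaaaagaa
One CCAAT box was found in each of the Mfsd2a, Cavin1 and Cavin2 windows and none in that of Cav1, beside 33.8% of the 32536 mouse promoter windows of the same length with at least 1. A GC box (GGGCGG, on either strand) was found once in the windows of Cav1 and Cavin1 and not in those of Mfsd2a and Cavin2, beside 33.0% of all windows. RefSeq lists a second Cav1 start, whose window at chr6:17307390-17307639 held neither box. A second Cavin1 window, at chr11:100970618-100970867, held 1 of each. A CArG box, the sequence bound by serum response factor in smooth muscle genes, was in none of them and in 1.48% of all windows. These motifs were picked after the levels were known, and a match describes the sequence and no binding. Of the 7 members, 5 had a promoter entry.

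Between 17550806 and 64215050 UMIs (unique molecular identifiers, each standing for 1 captured RNA molecule) were counted per library over 66658 barcodes, and 58579 cells were kept. Cells were assigned to classes by clusters named from marker genes, with the 7 members left out of the genes used for clustering and naming. This gave 18811 capillary, 5529 arterial, 2642 venous and 1522 fenestrated endothelial cells, 2133 SMC and 669 pericytes. Another 7690 endothelial cells, in 13 clusters with mixed markers or from mainly 1 mouse, were in no class. Human NOTCH3, the transgene, was at 199 to 361 CPM (UMIs of a gene per 1000000 UMIs of that class and mouse) in SMC of R182C-TgN3 mice and at 15.8 to 70.4 CPM in SMC of WT-TgN3 mice. Libraries shared barcodes: 966 barcodes stood in at least 2 libraries, which held 1659 of the kept cells (2.83%), and the highest overlap was 350 barcodes between R182C-TgN3 4 and 5 (10.2% of the smaller library). All 6-month libraries shared barcodes with each other, at 1.16% to 10.2% of the smaller library, and every other pair shared under 1%. Leaving out these cells changed no genotype call of a member, and among class differences only that of Cav2 between arterial and venous cells, given below.

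The classes carried their own markers. All 10 arterial, 7 capillary, 11 venous and 7 fenestrated markers were above 1 CPM in their class, and each list's summed level was highest there. The clusters had been named by these same lists, so this follows from the naming and is no check of the classes. The summed level of 6 pan-endothelial markers was 13121 ± 893 CPM (mean ± SD, n = 11 mice) in arterial and 12993 ± 688 CPM in capillary cells. It was 252 ± 223 CPM in SMC (1.94% of capillary cells), 181.9 ± 60.9 CPM in microglia and 3628 ± 1631 CPM in pericytes (n = 10, 28.0% of capillary cells in the same mice). Pericytes therefore held endothelial RNA, and every member's pericyte level below stands beside that value. WT-TgN3 5 had only 18 pericytes and was left out of pericyte values, except under the per-cell gate and with scored doublets kept, where it passed the minimum.

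Mfsd2a was highest in capillary endothelial cells, at 126 ± 24.4 CPM, and followed by arterial cells at 68.5 ± 16.1 CPM and venous cells at 14.6 ± 5.21 CPM. In the capillary cells of the 6 R182C-TgN3 mice it ranged from 75.3 CPM over a median of 129 CPM to 148 CPM, and in the WT-TgN3 mice it was 154, 131, 121, 148 and 91.3 CPM. The lowest capillary values belonged to R182C-TgN3 1 and WT-TgN3 5, both from batch 1, and the genotypes overlapped. Arterial cells ranged from 50.3 to 93.9 CPM and venous cells from 7.38 to 24.1 CPM, so capillary values overlapped with the highest arterial ones and with no venous one. Within mice, the capillary level exceeded the arterial one by 0.87 ± 0.34 (SD) on the log2(CPM + 1) scale, or 1.83-fold, in 11 of 11 mice (2-sided exact sign-flip permutation test over mice, p = 0.000977, the smallest possible with 11 mice, adjusted p = 0.0023 over all 7111 genes). It exceeded the venous level by 3.07 ± 0.51, or 8.39-fold, again in 11 of 11 mice. Mfsd2a was under 20 CPM in venous cells and entered this comparison through capillary cells alone, so no p-value is given for it. The arterial level exceeded the venous one 4.58-fold in 11 of 11 mice. With classes set by a per-cell marker gate in place of clusters, arterial and venous cells lay further below capillary cells, at log2 differences of -2.11 and -5.50.

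Fenestrated cells and SMC were almost without Mfsd2a. Over all mice 17 Mfsd2a UMIs were counted in fenestrated cells (2.04 ± 2.45 CPM, 0 in 4 mice) and 48 in SMC (2.63 ± 3.04 CPM, 0 in 3 mice), beside 1.34 CPM in microglia, a class that should lack the gene. Between SMC and fenestrated cells the log2(CPM + 1) difference of 0.22 ± 1.13 was within the spread (exact sign-flip permutation test, p = 0.73, adjusted p = 0.75 over 35 neighbour pairs). Pericytes were listed at 50.0 ± 26.5 CPM, from 139 UMIs in 10 mice.

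**Figure D1:**
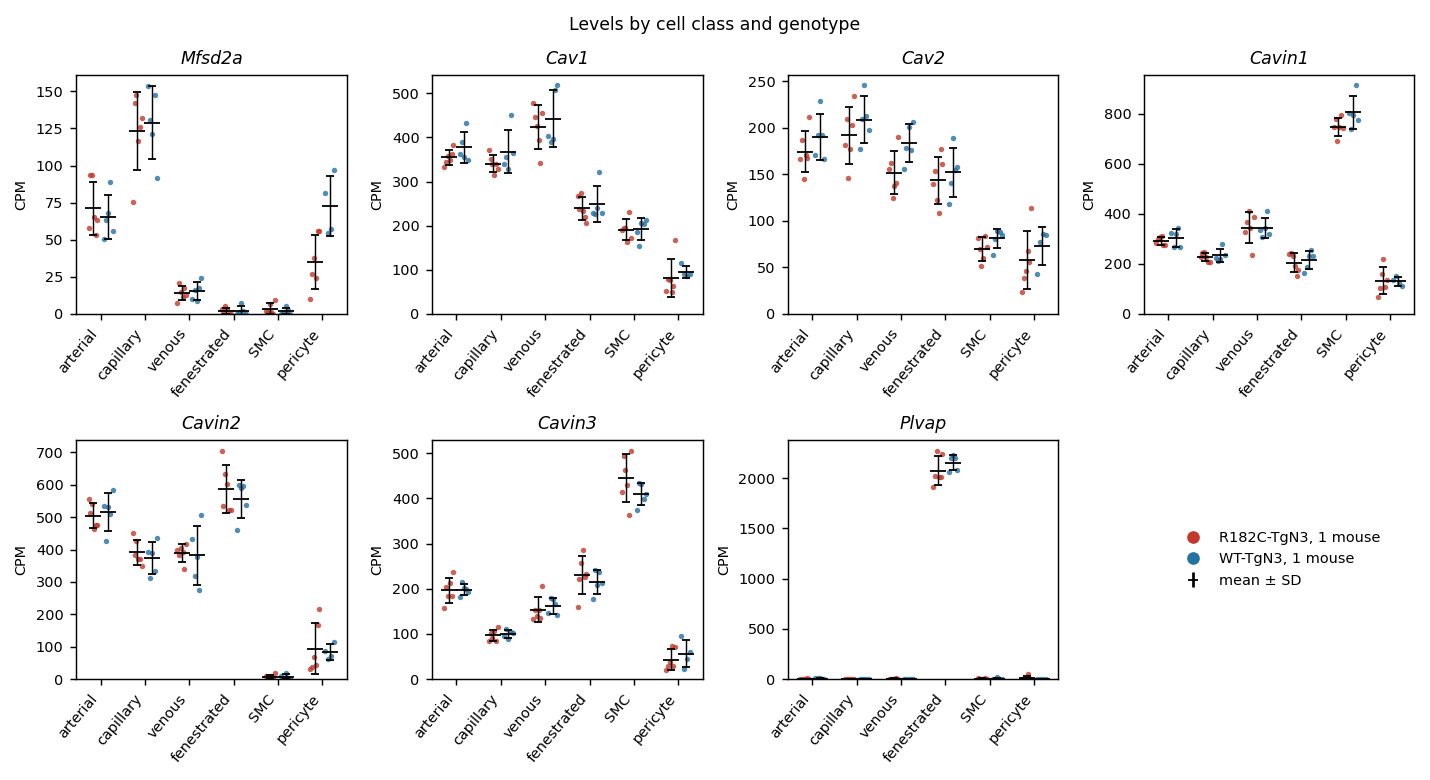
Level of each member (CPM, axes from 0) in 6 cell classes. Each point is 1 mouse, red for R182C-TgN3 and blue for WT-TgN3, and the black mark is the mean ± SD of the genotype. Mfsd2a is highest in capillary cells, Cavin1 and Cavin3 in SMC and Plvap in fenestrated cells, and the genotypes overlap in each class.

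Cav1, the main structural protein of endothelial caveolae, was found at close levels in 3 endothelial classes: 432 ± 54.6 CPM in venous, 365 ± 27.6 CPM in arterial and 353 ± 36.6 CPM in capillary cells. Venous values ranged from 342 to 519 CPM, arterial values from 332 to 433 CPM and capillary values from 315 to 451 CPM, and the 3 ranges overlapped. Fenestrated cells were lower, at 244 ± 32.6 CPM, followed by SMC at 192 ± 22.6 CPM and pericytes at 86.9 ± 34.2 CPM. Arterial and capillary cells did not differ beyond the spread between mice (log2 difference of 0.051 ± 0.11, 7 of 11 mice, exact sign-flip permutation test, p = 0.17). Venous cells exceeded capillary cells by 0.29 ± 0.14 in 11 of 11 mice (1.22-fold, adjusted p = 0.0030 over all genes, exact sign-flip permutation test). With the per-cell marker gate this difference was 0.059 (exact sign-flip permutation test, p = 0.51), and that between arterial and capillary cells was 0.21 in favour of arterial cells (adjusted p = 0.0024 over 35 neighbour pairs, exact sign-flip permutation test). The venous clusters were uneven: 1 of 3, with 467 cells of a median of 915 UMIs and led by the inflammatory genes Lcn2, Ackr1 and Serpina3n, held 132 CPM of Cav1, and the other two held 435 and 438 CPM.

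Cav2, which forms complexes with Cav1, was highest in capillary cells at 199.7 ± 28.1 CPM and fell in small steps through arterial (181.7 ± 23.7 CPM), venous (166 ± 26.6 CPM) and fenestrated cells (147 ± 24.6 CPM). Capillary values ranged from 146 to 246 CPM and arterial values from 145 to 229 CPM. The 2 ranges overlapped, but within mice the capillary level was higher in 11 of 11 (log2 difference of 0.13 ± 0.081, 1.10-fold, adjusted p = 0.0023 over all genes, exact sign-flip permutation test). SMC held 74.8 ± 12.6 CPM, 37.5% of the capillary level. The steps from arterial to venous (0.13 ± 0.16) and from venous to fenestrated cells (0.17 ± 0.21) each had an adjusted p of 0.034 over 35 neighbour pairs in the exact sign-flip permutation test. The first was 0.10 with an adjusted p of 0.058 without the shared barcodes, and the second was -0.17 with the per-cell gate and -0.088 with scored doublets kept (adjusted p = 0.59 and 0.24, exact sign-flip permutation test). Each missed the threshold when some single mice were left out.

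Cavin1, which coats caveolae and without which they do not form, peaked in SMC at 774 ± 57.0 CPM. SMC values ranged from 689 to 914 CPM and overlapped with no endothelial class, of which venous cells came next at 344 ± 50.4 CPM (235 to 412 CPM). Arterial cells held 297 ± 25.4 CPM, capillary cells 229 ± 20.9 CPM and fenestrated cells 209 ± 35.8 CPM. SMC exceeded capillary cells by 1.75 ± 0.12 on the log2(CPM + 1) scale (3.37-fold, 11 of 11 mice, adjusted p = 0.0014 over all genes, exact sign-flip permutation test). Among endothelial cells, capillary cells were below arterial cells by 0.37 ± 0.10 (1.29-fold) and below venous cells by 0.57 ± 0.17 (1.49-fold), each in 11 of 11 mice (adjusted p = 0.0023 and 0.0030, exact sign-flip permutation test). Venous over arterial cells, a step of 0.20 ± 0.19, was at -0.018 with the per-cell gate.

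Cavin3, a cavin linked to protein kinase C delta, had the same highest class as Cavin1 and another endothelial order, with fenestrated cells first in place of last. It was at 429 ± 44.8 CPM in SMC, 224 ± 35.1 CPM in fenestrated, 197 ± 20.9 CPM in arterial, 157 ± 22.8 CPM in venous and 98.5 ± 10.5 CPM in capillary cells. Capillary values ran from 83.2 to 114 CPM and stayed below those of every other endothelial class, of which the lowest venous value was 133 CPM. SMC exceeded capillary cells 4.33-fold (log2 difference of 2.11 ± 0.15) and arterial cells exceeded them 1.99-fold (0.99 ± 0.092), both in 11 of 11 mice (adjusted p = 0.0014 and 0.0023 over all genes, exact sign-flip permutation test). The steps among the upper endothelial classes were smaller, and the one from arterial to venous cells (0.33 ± 0.11) was 0.068 with the per-cell gate (adjusted p = 0.30, exact sign-flip permutation test). The arterial to capillary difference of Cavin3 was larger in size than that of 91.6% of the 7111 genes tested, and that of Mfsd2a, in the other direction, was larger than that of 90.3%.

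Cavin2, which helps to bend the caveolar membrane, was an endothelial gene in these data. It was at 572 ± 65.8 CPM in fenestrated and 510 ± 46.3 CPM in arterial cells, and at the same level in venous (386 ± 60.9 CPM) and capillary cells (384 ± 43.0 CPM). The venous to capillary difference was -0.00054 ± 0.16 on the log2 scale, with 5 of 11 mice higher in venous cells (exact sign-flip permutation test, p = 0.99). With the per-cell gate it was -0.27 (adjusted p = 0.026, exact sign-flip permutation test). Arterial cells exceeded capillary cells 1.33-fold in 11 of 11 mice (log2 difference of 0.41 ± 0.085, adjusted p = 0.0023, exact sign-flip permutation test). SMC held 7.14 ± 6.51 CPM, from 0.447 to 18.5 CPM, beside 4.25 CPM in microglia. Cavin1 and Cavin3 thus had their highest level in the class in which Cavin2 had its lowest.

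Plvap was high in the fenestrated class and at most at 5.49 CPM on average in each of the other 5 classes. Fenestrated cells held 2112 ± 120 CPM, with a range of 1909 to 2267 CPM over 11 mice. The R182C-TgN3 mice had a median of 2014 CPM, and the WT-TgN3 mice were at 2065, 2201, 2231, 2201 and 2076 CPM. Arterial cells held 3.95 ± 3.06 CPM, venous cells 2.24 ± 3.54 CPM and capillary cells 0.695 ± 0.284 CPM, beside 1.16 CPM in microglia. With classes set by clusters, Plvap was thus not detectable above the microglial background in capillary cells at this depth, from 83 UMIs in 18811 cells. With the per-cell gate it was at 2.46 CPM in capillary cells and 1.14 CPM in microglia. In pericytes 9 Plvap UMIs were counted in R182C-TgN3 4 and none in the other 9 mice.

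The members were read against all genes, because most genes differed between these classes. Members and genes were counted here where both classes held at least 20 CPM on average, since a member that is high in 1 class alone had to differ. Between arterial and capillary cells 5 of 6 members passed adjusted p under 0.05, beside 64.1% of all genes, and between capillary and venous cells 4 of 5, beside 55.6%. Capillary cells differed from fenestrated cells in 5 of 5 members (57.7% of all genes), from SMC in 4 of 4 (81.3%) and from pericytes in 6 of 6 (48.2%). Arterial cells differed from venous cells in 5 of 5 (62.5%), from fenestrated cells in 5 of 5 (57.2%), from SMC in 4 of 4 (79%) and from pericytes in 5 of 6 (50.2%). Venous cells differed from fenestrated cells in 5 of 5 (56%), from SMC in 4 of 4 (77.5%) and from pericytes in 5 of 5 (48.8%). Fenestrated cells differed from SMC in 4 of 4 (72%) and from pericytes in 5 of 5 (45.9%), and SMC from pericytes in 3 of 4 (55.9%). With so many genes called, these counts set the members apart little. The median size of the members' log2 differences was 0.39 between arterial and capillary cells against 0.15 over all genes, 0.29 against 0.15 between capillary and venous cells, and 1.58 against 0.43 between capillary cells and SMC. It lay closer to that of all genes between arterial and venous cells, at 0.24 against 0.21, and between arterial and fenestrated cells, at 0.31 against 0.25.

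Shares of cells with at least 1 UMI followed the same order once each cell was thinned to 2000 UMIs and shallower cells were left out. Mfsd2a was found in 22.7 ± 4.16% of capillary (17849 cells), 11.9 ± 2.30% of arterial (5365 cells) and 2.70 ± 1.10% of venous cells (2145 cells), beside 0.223 ± 0.18% of microglia (11585 cells; mean ± SD over 11 mice). Cav1 was found in 55.7 ± 3.99% of venous, 47.6 ± 3.21% of arterial and 44.8 ± 2.32% of capillary cells, beside 0.88 ± 0.39% of microglia. Cavin1 was found in 75.4 ± 3.78% of SMC and 33.27 ± 3.45% of capillary cells, and Plvap in 96.1 ± 1.48% of fenestrated cells and 0.208 ± 0.16% of microglia. Thinning left out 962 capillary, 164 arterial, 497 venous and 105 fenestrated cells, 17 SMC and 721 microglia. The venous cluster with 132 CPM of Cav1 had a median of 915 UMIs, so most of its cells were left out. Without thinning, Cav1 was found in 79.0% of venous, 78.1% of arterial and 70.4% of capillary cells, at unlike depths. Median depths before thinning were 4792 UMIs in capillary cells and 5401 UMIs in microglia. Without thinning, the Mfsd2a shares were 45.0% of capillary cells and 0.641% of microglia.

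Mfsd2a varied within as well as between the classes. Over the 12 capillary clusters it ranged from 61.1 to 243 CPM, over the 5 arterial clusters from 3.99 to 135 CPM and over the 3 venous clusters from 12.4 to 20.4 CPM. The arterial cluster with the lowest level was led by Cytl1, Fbln5, Bgn and Eln, genes of larger arteries, and the highest was led by Bmx, Gkn3 and Hey1. Cavin1 ran the other way, from 183 CPM in the capillary cluster with the highest Mfsd2a to 418 CPM in the arterial cluster with the lowest. Over the 20 arterial, capillary and venous clusters, log levels of Mfsd2a and Cavin1 had a Pearson r of -0.83 and a Spearman rho of -0.80, and those of Mfsd2a and Cavin3 of -0.76 and -0.77. For Cav1 the values were -0.19 and -0.61, for Cavin2 -0.31 and -0.47 and for Cav2 0.44 and 0.61. These clusters leave out fenestrated cells, and the sign depended on that for Cavin1 and Cav1. Over 44 profiles of 1 mouse and 1 endothelial class, fenestrated cells included, the Pearson r with Mfsd2a was 0.27 for Cavin1 and 0.58 for Cav1. It was 0.58 for Cav2, -0.42 for Cavin2 and -0.61 for Cavin3. The clusters share libraries, differ in depth from a median of 915 to 16602 UMIs per cell and were built from the same cells, so these values are descriptions.

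**Figure D2:**
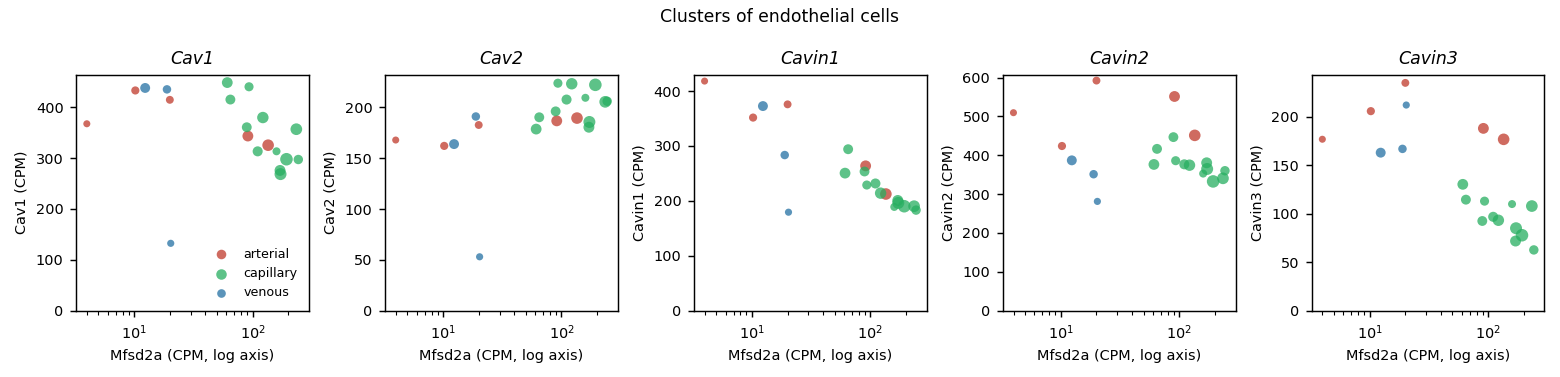
Level of Cav1, Cav2, Cavin1, Cavin2 and Cavin3 (CPM, vertical axes from 0) against Mfsd2a (CPM, log axis) in 20 clusters of arterial, capillary and venous endothelial cells, with point area rising with the number of cells. Among capillary clusters Cavin1 and Cavin3 are lowest where Mfsd2a is highest (183 and 62.5 CPM beside 243 CPM), Cav2 shows no such order, and 1 venous cluster stands apart with Cav1 at 132 CPM, Cav2 at 53.0 CPM and Cavin1 at 179 CPM.

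The 5 genes with the profile most like a member were listed from 6913 genes over 44 profiles (4 endothelial classes in 11 mice, with the mice shared between classes). Nearest to Mfsd2a were Lrp8 (Pearson r = 0.95), a lipoprotein receptor, Lrrn3 (0.95), Il10rb (0.93), the Wnt-deacylating enzyme Notum (0.93) and the thyroid hormone transporter Slco1c1 (0.93). Lrp8 was at 146 CPM in capillary, 59.9 CPM in arterial, 30.3 CPM in venous and 1.93 CPM in fenestrated cells. Nearest to Cav1 were Tshz1 (0.91), Cpq (0.89), Gm5089 (0.89), Tmem51 (0.88) and Myrip (0.88). Nearest to Plvap were Col13a1 (0.99), Esm1 (0.99), which was also a marker of the fenestrated class, Btnl9 (0.99), Piezo2 (0.99) and Ntf3 (0.99), genes at 222 to 1172 CPM in fenestrated cells and at most 1.37 CPM in the other classes.

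Among mural cells, SMC held 4 of the members at levels far above their endothelial RNA. SMC clusters held Cavin3 at 436%, Cavin1 at 338%, Cav1 at 54.2% and Cav2 at 37.5% of the capillary level, whereas the 6 endothelial markers were at 1.94%, Mfsd2a at 2.09% and Cavin2 at 1.86%. With SMC taken by a per-cell gate that leaves out cells with endothelial markers, the endothelial markers fell to 0.368% and Cavin2 to 0.504%, and Cavin3 was at 452%, Cavin1 at 352%, Cav1 at 53.8% and Cav2 at 35.6%. In pericyte clusters the endothelial markers were at 28.0% of the capillary level, and Mfsd2a (38.6%), Cav1 (24.7%), Cav2 (31.8%) and Cavin2 (23.7%) were at similar shares. In gated pericytes the markers were at 1.35%, and Mfsd2a was at 2.22% from 3 UMIs, Cav1 at 1.98% from 9 UMIs, Cav2 at 4.43% from 13 UMIs and Cavin2 at 0.827% from 4 UMIs. Cavin1 was at 28.8% from 75 UMIs and Cavin3 at 12.7% from 17 UMIs, after 57.2% and 49.1% in the clusters. Both peaked in SMC, and pericyte clusters held the 6 SMC markers at 4.14% of their SMC level. The part of SMC RNA in these pericyte values was not tested. The gated pericytes were 353 cells.

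**Figure D3:**
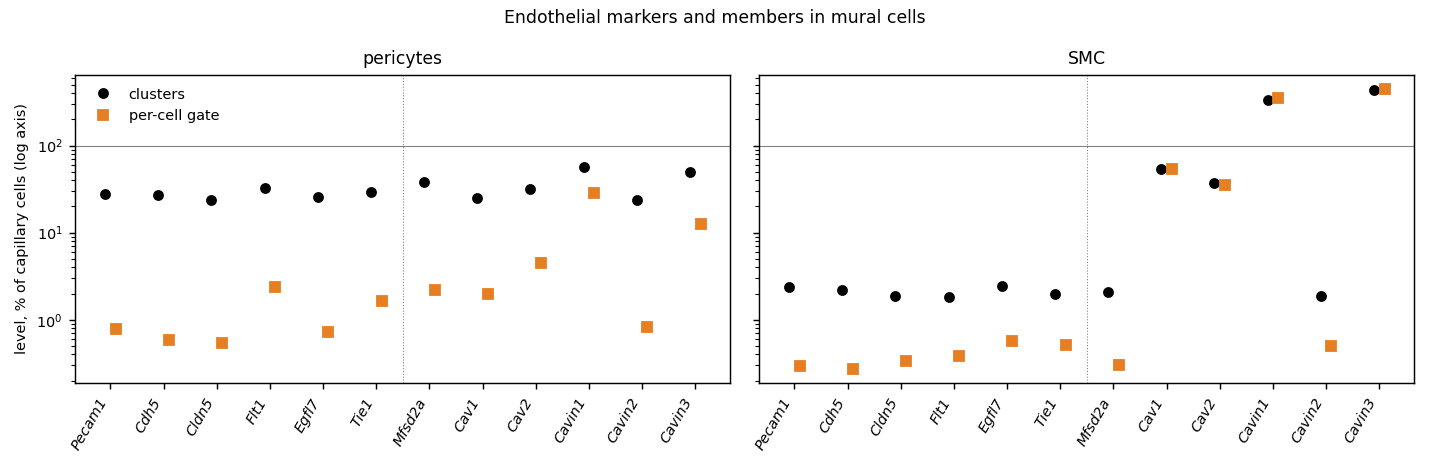
Level of 6 endothelial markers (left of the dotted line) and 6 members as a percentage of the capillary level (log axis) in pericytes and SMC, taken from clusters (black circles) or by a per-cell gate (orange squares), as means over mice. In pericytes Mfsd2a, Cav1, Cav2 and Cavin2 move down with the markers under the gate while Cavin1 moves from 57.2% to 28.8%, and in SMC Cav1, Cav2, Cavin1 and Cavin3 hold their level.

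No member passed the test for a difference between CADASIL and control mice in any class. Of 42 pairs of a member and a class, 36 passed the filter on low counts and were tested with edgeR's quasi-likelihood test on summed UMIs, and 0 passed an adjusted p of 0.05, with 14 log2 fold changes above 0 and 22 below (R182C-TgN3 over WT-TgN3). The 6 pairs that failed the filter were Plvap in capillary and venous cells, SMC and pericytes, and Mfsd2a in fenestrated cells and SMC. Over all genes the share called was 0% in arterial, capillary, venous and fenestrated cells and in pericytes, and 0.0113% in SMC (1 gene of 8856, human NOTCH3). Genes with an unadjusted p under 0.05 numbered 169 of 10432, 183 of 11805, 294 of 9981, 186 of 8275 and 177 of 4905 in these 5 classes. DESeq2 called 0, 0, 0, 0 and 1 gene in them. In all 42 pairs the ranges of the genotypes overlapped. Such overlap was not counted over all genes, so it does not set the members apart.

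Mfsd2a in capillary cells had a log2 fold change of -0.013 ± 0.17 (SE), with a 95% interval of -0.38 to 0.35, from means of 123 ± 26.1 CPM in 6 R182C-TgN3 and 129 ± 24.7 CPM in 5 WT-TgN3 mice. In arterial cells it was 0.16 ± 0.17 and in venous cells -0.043 ± 0.26. Cav1 had a log2 fold change of -0.066 ± 0.090 in capillary, -0.049 ± 0.096 in arterial, -0.019 ± 0.12 in venous and -0.0064 ± 0.13 in fenestrated cells and 0.020 ± 0.11 in SMC. Its capillary interval, -0.26 to 0.13, covers changes of that size in either direction. Plvap in fenestrated cells was at -0.0026 ± 0.12 (interval of -0.25 to 0.25). In arterial cells, where few Plvap UMIs were counted (56 UMIs over the CADASIL and 87 over the control mice), it was at -0.82 ± 0.54 (interval of -1.95 to 0.31), from 2.91 ± 1.69 and 5.19 ± 4.04 CPM, and ran from -1.44 to 0.082 within the batches. Adjusted p-values (edgeR, quasi-likelihood test, Benjamini-Hochberg) were all 1.00 to the digits given.

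For Cav2 the log2 fold change was -0.23 ± 0.12 (interval of -0.47 to 0.019) in venous cells and -0.21 ± 0.12 in SMC, neither past the threshold. In venous cells it ranged from 125 to 190 CPM in R182C-TgN3 mice, with a median of 149 CPM, and was 155, 179, 201, 176 and 206 CPM in WT-TgN3 mice. The groups overlapped, and within batches 1, 3 and 4 the log2 difference ran from -0.26 to -0.085. Cavin1 in SMC was at -0.072 ± 0.095, Cavin3 in SMC at 0.16 ± 0.11 and Cavin2 in capillary cells at 0.12 ± 0.096.

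The only unadjusted p under 0.05 was that of Mfsd2a in pericytes. Its log2 fold change was -0.97 ± 0.36 (interval of -1.72 to -0.22), with an unadjusted p of 0.014 and an adjusted p of 1.00 (edgeR). R182C-TgN3 mice held 9.87, 26.6, 37.3, 24.4, 56.1 and 55.5 CPM and WT-TgN3 mice 1 to 4 held 81.5, 54.3, 57.4 and 96.9 CPM, from 3 to 29 UMIs per mouse. R182C-TgN3 5 and 6 lay within the WT-TgN3 range. Within batches the log2 difference was -2.50 in batch 1, -0.83 in batch 3 and -0.048 in batch 4. The summed endothelial markers of these pericytes were at 1585 to 6945 CPM in R182C-TgN3 mice and at 3278 to 4432 CPM in WT-TgN3 mice, and their part in the difference was not tested. With scored doublets kept, which also brought WT-TgN3 5 into the fit, the log2 fold change was -0.14 ± 0.22.

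**Figure D4:**
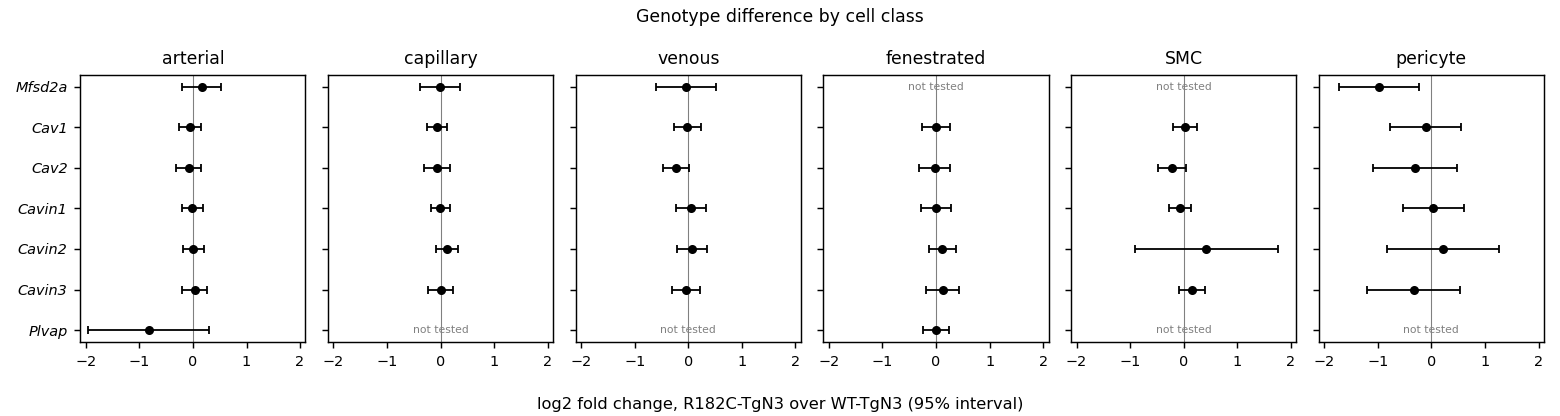
Log2 fold change of each member between R182C-TgN3 and WT-TgN3 mice in 6 cell classes, with 95% intervals from the edgeR fit. Intervals cover 0 in 35 of 36 tests, are narrow for caveolins and cavins in endothelial cells and wide for Plvap in arterial cells, Cavin2 in SMC and all members in pericytes, and Mfsd2a in pericytes is at -0.97.

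The difference between genotypes was also compared between 6 and 9 months, which are also different batches. Of 36 interaction terms 0 passed adjustment (edgeR, quasi-likelihood test). Plvap in arterial cells (1.37 ± 0.63, adjusted p = 1.00) had an unadjusted p under 0.05, as had 200 of the 10432 genes tested in that class. In pericytes, with 1 WT-TgN3 mouse at 9 months, the terms of Cavin2 (-2.29 ± 0.81) and Cav2 (-1.43 ± 0.67) are given as effect sizes only. For Mfsd2a in capillary cells the term was 0.18 ± 0.36 (interval of -0.59 to 0.95). The terms rest on 2 WT-TgN3 mice at 9 months (1 in pericytes).

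The wider pathway was covered by 3 lists. Of 19 partners of caveolae (EHD, PACSIN and dynamin proteins, Src kinases, eNOS, Scarb1, Acvrl1 and others) 16 were tested in capillary cells and 0 passed in either direction, with a median log2 fold change of -0.072 against 0.0055 over all genes. Pacsin2, which shapes the caveolar neck, was at 48.0 ± 6.70 CPM in R182C-TgN3 and 54.7 ± 4.04 CPM in WT-TgN3 mice (log2 fold change of -0.15 ± 0.079), and Cavin4, the muscle cavin, at 6.32 ± 2.26 and 5.08 ± 1.61 CPM (0.38 ± 0.26). Of 19 genes of clathrin-dependent uptake all 19 were tested in capillary cells and 0 passed, with a median of -0.020. Igf2r, a receptor for IGF2 and lysosomal enzymes, was at 15.4 ± 2.45 and 12.7 ± 1.11 CPM (0.33 ± 0.12, unadjusted p = 0.014, adjusted p = 1.00, edgeR), and the clathrin adaptor subunit Ap2a2 at 101 ± 10.99 and 116 ± 14.1 CPM (-0.15 ± 0.10). Of 15 genes of Mfsd2a control and barrier function 15 were tested and 0 passed, with a median of 0.0021. Among them Spns2, a sphingosine-1-phosphate transporter, was at 44.6 ± 2.36 and 49.8 ± 4.56 CPM (-0.11 ± 0.061) and the glucose transporter Slc2a1 at 962 ± 99.4 and 931 ± 67.7 CPM (0.098 ± 0.096).

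The 3 lists gave 0 calls in the other 5 classes too. In fenestrated cells 12 of the 13 tested genes of the barrier list had a fold change above 0, beside 51.5% of all genes tested, and their median was 0.21 on the log2 scale against 0.0061 over all genes. The 3 with an unadjusted p under 0.05 were Slco1c1 (1.06 ± 0.41), the tight junction protein Cldn5 (0.75 ± 0.32) and the transcription factor Foxf2 (0.44 ± 0.16), each with an adjusted p of 1.00 (edgeR). These 3 were named after their values were seen, and the count of all genes with such a p in this class is given above. Slco1c1 was at 21.4 CPM in fenestrated cells, beside 1330 CPM in capillary cells. The part of capillary RNA in these values was not tested.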

How the data were processed

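Single cells from CD31-selected microvascular fragments of the brains of 11 mice were measured by droplet sequencing of the 3′ ends of transcripts. Raw UMI counts per gene and barcode were deposited by the authors, who had aligned the reads with Cell Ranger 7.0.0 to mm10 with human NOTCH3 added. Barcodes under 500 genes or over 10% mitochondrial UMIs were dropped, scored doublets were removed at 0.8% per 1000 barcodes, and cells were clustered (2000 variable genes, 30 components, 15 neighbours, resolution 1, endothelial cells at 2) in Python 3.11.15 with scikit-learn 1.9.0 and leidenalg 0.10.2. Clusters were named from marker lists; how firmly a score must lead was set after the clusters were seen, and correlated genes of the members remained among the clustering genes. The alternative gate took single cells by the same markers. Class tests on cells assigned in this way measure the spread between mice, not errors of assignment.

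Counts were summed per mouse and class with at least 20 cells (10 under the gate, which left 5 R182C-TgN3 and 4 WT-TgN3 mice in venous cells), leaving out 11236 ribosomal, mitochondrial, Gm and Rik features from the genotype fits. Genotypes were compared with edgeR 4.0.16 (quasi-likelihood test, TMM, filterByExpr, Benjamini-Hochberg over all genes) in R 4.3.3, with DESeq2 1.42.0 as an alternative. Classes were compared by a 2-sided exact sign-flip permutation test of within-mouse differences of log2(CPM + 1), adjusted over all genes at 20 CPM or more, or over 35 pairs of neighbours in the order of levels. Errors are SD over mice for levels and SE for fold changes. The smallest p the sign-flip test can give is 0.000977 with 11 mice and 0.00195 with 10. Each library is 1 mouse. Levels of different genes were not compared, since 3′ counts depend on the gene.

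All members are named in each class. Of the 3 further lists, genes past an adjusted p of 0.05 are named, otherwise the 2 with the largest fold change in capillary cells, and the 5 genes most like Mfsd2a, Cav1 and Plvap. The members, lists and tests were chosen with earlier results of these data known. The analysis steps were tested on simulated data.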

Additional observations from a re-analysis of the deposited data

Results flagged for a closer look

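Of 83 groups of 4 to 10 mice of 1 genotype, 8 held a mouse that stood apart from the others by Dixon's ratio at the 95% level, and chance flags about 1 in 20 groups. The only one of these that rests on over 1000 UMIs was Cavin3 in venous cells of R182C-TgN3 6, at 207 CPM (1098 UMIs), where the other R182C-TgN3 mice held 133 to 154 CPM. Cav1 in fenestrated cells of WT-TgN3 4 was at 322 CPM (399 UMIs), beside 225 to 240 CPM in the other WT-TgN3 mice. In pericytes Cav1 was at 167 CPM in R182C-TgN3 6 (69 UMIs, the others 48.8 to 79.8 CPM) and at 115 CPM in WT-TgN3 1 (24 UMIs, the others 86.2 to 90.8 CPM).

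Few UMIs lay behind the other 4. Plvap was at 12.3 CPM in venous cells of R182C-TgN3 5 (14 UMIs, the others at most 4.15 CPM), at 17.3 CPM in SMC of WT-TgN3 3 (14 UMIs, the others at most 2.75 CPM) and at 54.9 CPM in pericytes of R182C-TgN3 4 (9 UMIs, the others at 0). Mfsd2a was at 7.55 CPM in fenestrated cells of WT-TgN3 3, from 4 UMIs, beside at most 1.62 CPM in the other WT-TgN3 mice.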

How the results depend on the processing

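The precision was set by the number of mice, by the UMIs behind a value and by how cells were assigned: Mfsd2a rested on 139 UMIs in pericytes and 48 in SMC, and age could not be told apart from batch. Under DESeq2, other size factors, no filter on low counts, batch or sex as a covariate, pairs by number or by batch and sex, the per-cell gate, kept doublets, a stricter gene minimum, kept unnamed clusters that met the score rule, no shared barcodes and each mouse left out, the smallest adjusted p of a member between genotypes was 0.43 over 842 tests. Mfsd2a in capillary over venous cells kept its direction in each alternative. Mfsd2a in capillary over arterial cells, Cavin1 and Cavin3 in SMC over the next class and over capillary cells and in arterial and venous over capillary cells, and Cavin2 in arterial and fenestrated over capillary cells kept their direction and their call in each alternative. The values below are those that did not, with the adjusted p of the exact sign-flip permutation test over 35 neighbour pairs in parentheses, and the cause was not tested. The unnamed endothelial clusters, the shared barcodes and the pairs by batch and sex were added as alternatives after the data were seen. Of the unnamed clusters, only those in which the marker score of 1 endothelial class led firmly enough were kept in that class. With DESeq2 size factors in edgeR, the genotype log2 fold change took the other sign at 0.00089 for Plvap in fenestrated cells. With DESeq2, the genotype log2 fold change took the other sign at 0.0012 for Plvap in fenestrated cells. Between genotypes, 1 gene in pericytes passed. Without the filter on low counts, the genotype log2 fold change took the other sign at -0.012 for Cavin1 in fenestrated cells. Between genotypes, 1 gene in arterial cells, 4 genes in fenestrated cells and 1 gene in pericytes passed. With the batch as a covariate, the genotype log2 fold change took the other sign at -0.068 for Cavin1 in fenestrated cells, and at -0.030 for Cavin1 in venous cells, and at -0.028 for Cavin2 in arterial cells. With sex as a covariate, the genotype log2 fold change took the other sign at 0.0079 for Cav1 in fenestrated cells, and at 0.0055 for Cavin1, 0.013 for Cavin3 and 0.0022 for Mfsd2a in capillary cells, and at -0.084 for Cavin2 in SMC, and at 0.050 for Mfsd2a in venous cells. Between genotypes, 1 gene in pericytes passed. With the per-cell marker gate, the genotype log2 fold change took the other sign at 0.014 for Cav1 and 0.0064 for Cav2 in fenestrated cells, and at 0.021 for Cavin1 in capillary cells, and at -0.0041 for Cavin2 and -0.065 for Cavin3 in arterial cells. Of the class differences, the other sign was found for Mfsd2a pericyte over venous -0.49 (0.62), Mfsd2a SMC over fenestrated -0.39 (0.35), Cav1 venous over arterial -0.16 (0.18), Cav2 venous over fenestrated -0.17 (0.59), Cavin1 venous over arterial -0.018 (0.85), Cavin2 pericyte over SMC -0.41 (0.59) and Plvap SMC over venous -0.19 (0.84). The test was no longer passed by Mfsd2a venous over SMC 1.27 (0.12), Cavin1 capillary over fenestrated 0.060 (0.42), Cavin2 fenestrated over arterial 0.14 (0.19), Cavin3 fenestrated over arterial 0.15 (0.23) and Cavin3 arterial over venous 0.068 (0.30). The test was newly passed by Mfsd2a arterial over pericyte 4.08 (0.0024), Cav1 arterial over capillary 0.21 (0.0024), Cav2 SMC over pericyte 4.04 (0.0024), Cavin2 venous over capillary -0.27 (0.026) and Plvap pericyte over arterial -1.87 (0.0024). Between genotypes, 1 gene in pericytes passed. With scored doublets kept, the genotype log2 fold change took the other sign at 0.0066 for Cav1 and 0.0068 for Plvap in fenestrated cells, and at 0.027 for Cav1 in venous cells, and at 0.0069 for Cavin1 and -0.073 for Mfsd2a in arterial cells, and at 0.0026 for Cavin1 and 0.039 for Cavin3 in capillary cells, and at -0.11 for Cavin1 and -0.069 for Cavin2 in pericytes. Of the class differences, the other sign was found for Mfsd2a arterial over pericyte -0.60 (0.0057), Mfsd2a venous over SMC -0.14 (0.82), Cav2 venous over fenestrated -0.088 (0.24), Cav2 SMC over pericyte -0.50 (0.0072) and Plvap arterial over SMC -0.077 (0.90). The test was no longer passed by Cav1 venous over arterial 0.043 (0.58), Cav1 SMC over pericyte 0.15 (0.23), Cavin1 venous over arterial 0.16 (0.055), Cavin1 capillary over fenestrated 0.11 (0.055), Cavin1 fenestrated over pericyte 0.19 (0.074), Cavin2 fenestrated over arterial 0.083 (0.27) and Cavin3 fenestrated over arterial 0.11 (0.062). Between genotypes, 1 gene in pericytes passed. With at least 1000 genes per barcode, the genotype log2 fold change took the other sign at 0.053 for Cav1 in venous cells, and at 0.018 for Cavin3 in capillary cells, and at 0.0042 for Plvap in fenestrated cells. Of the class differences, the other sign was found for Cav2 venous over fenestrated -0.040 (0.57). The test was no longer passed by Mfsd2a venous over SMC 0.60 (0.27), Cav1 venous over arterial 0.11 (0.071), Cavin1 capillary over fenestrated 0.11 (0.081), Cavin2 fenestrated over arterial 0.13 (0.091) and Cavin3 fenestrated over arterial 0.14 (0.057). With the unnamed endothelial clusters that met the score rule kept, the genotype log2 fold change took the other sign at 0.13 for Cav1, 0.066 for Cav2 and -0.12 for Cavin3 in fenestrated cells, and at 0.0039 for Cavin3 in capillary cells. Of the class differences, the other sign was found for Cavin2 venous over capillary 0.022 (0.68). The test was no longer passed by Cav1 fenestrated over SMC 0.24 (0.11) and Cavin2 fenestrated over arterial 0.13 (0.17). The test was newly passed by Cav1 arterial over capillary 0.091 (0.034) and Plvap pericyte over arterial -1.63 (0.050). Without the shared barcodes, the genotype log2 fold change took the other sign at 0.0064 for Cav1 in venous cells, and at -0.0062 for Cavin1 and 0.00051 for Plvap in fenestrated cells. Of the class differences, the other sign was found for Cavin2 venous over capillary 0.0089 (0.88). The test was no longer passed by Cav2 arterial over venous 0.10 (0.058).

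With 1 mouse left out at a time, the genotype log2 fold change in SMC ran from -0.034 to 0.062 for Cav1. In capillary cells it ran from -0.12 to 0.013 for Cav1, -0.047 to 0.065 for Cavin1, -0.075 to 0.060 for Cavin3 and -0.12 to 0.10 for Mfsd2a. In fenestrated cells it ran from -0.064 to 0.092 for Cav1, -0.094 to 0.048 for Cav2, -0.075 to 0.059 for Cavin1 and -0.041 to 0.041 for Plvap. In pericytes it ran from -0.47 to 0.0021 for Cav1, -0.11 to 0.18 for Cavin1, -0.37 to 0.42 for Cavin2 and -0.61 to 0.064 for Cavin3. In venous cells it ran from -0.067 to 0.039 for Cav1, -0.017 to 0.14 for Cavin1, -0.029 to 0.19 for Cavin2, -0.17 to 0.014 for Cavin3 and -0.21 to 0.11 for Mfsd2a. In arterial cells it ran from -0.060 to 0.032 for Cavin1, -0.030 to 0.050 for Cavin2 and -0.054 to 0.091 for Cavin3. The log2 class differences ran from 0.13 to 0.20 for Cavin2 fenestrated over arterial, -0.026 to 0.027 for Cavin2 venous over capillary, 0.12 to 0.18 for Cav2 arterial over venous, 0.12 to 0.17 for Cavin1 capillary over fenestrated, 0.15 to 0.22 for Cav2 venous over fenestrated, -2.14 to -1.34 for Plvap pericyte over arterial, -0.091 to 0.34 for Mfsd2a SMC over fenestrated and 0.47 to 0.82 for Mfsd2a arterial over pericyte. Counts of genes passing between genotypes ran from 0 to 2 in fenestrated cells, from 0 to 1 in pericytes and from 0 to 1 in venous cells. The counts of 2 in fenestrated cells came without R182C-TgN3 5. That of 1 in venous cells came without R182C-TgN3 4, and that in pericytes without R182C-TgN3 5 or 6. Mfsd2a in arterial over pericyte passed without WT-TgN3 1 and Plvap in pericyte over arterial without R182C-TgN3 4.

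Mice that share an age and a label number were checked as 5 pairs, without R182C-TgN3 3. They did not deviate together (r of deviations from the genotype mean from -0.33 to 0.16, with at most 2 of 5 pairs over 0.1 in a class), and not every mouse was closest to its own number (in arterial cells R182C-TgN3 1 had r = 0.56 with WT-TgN3 5 and 0.080 with WT-TgN3 4, its own number), so the pairs share only a number. With the replicate block, the genotype log2 fold change took the other sign at -0.064 for Cavin1 in fenestrated cells, and at -0.024 for Cavin1 in pericytes, and at -0.037 for Cavin1 in venous cells, and at -0.027 for Cavin2 in arterial cells. The block left the count of genes passing between genotypes at 0 in 5 classes and at 1 in SMC. Mice of both genotypes that share batch and sex form 5 pairs (4 in pericytes), 1 of which shares its number too. Of these, 3 or 4 had r over 0.1 in each class but pericytes, with the highest at 0.65 in capillary cells. With mice that share batch and sex as pairs, the genotype log2 fold change took the other sign at -0.062 for Cavin1 in fenestrated cells, and at -0.031 for Cavin1 in venous cells, and at -0.026 for Cavin2 in arterial cells. Between genotypes, 2 genes in fenestrated cells passed.

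Without thinning, the mean share of cells with a UMI was 45.0% for Mfsd2a in capillary cells, 0.641% for Mfsd2a in microglia, 79.0% for Cav1 in venous cells, 96.7% for Cavin1 in SMC and 0.683% for Plvap in microglia. With cells thinned to 1000 UMIs, the mean share of cells with a UMI was 13.2% for Mfsd2a in capillary cells, 31.6% for Cav1 in venous cells, 51.6% for Cavin1 in SMC and 82.8% for Plvap in fenestrated cells.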

Other observations

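Among the endothelial clusters that were put in no class, 2 small ones are given here for their Plvap and Cav1 levels, and both were picked after their values were seen. A cluster of 246 cells, 90.7% of them from WT-TgN3 5, held Plvap at 3432 CPM and Cavin3 at 544 CPM with Cav1 at only 53.0 CPM, Cav2 at 81.5 CPM, Cavin1 at 119 CPM, Cavin2 at 344 CPM and Mfsd2a at 4.46 CPM. It was led by Meis2, Igfbp5 and Chrm3. A cluster of 49 cells, 40.8% of them from WT-TgN3 4, held Cav1 at 1118 CPM, Plvap at 35.8 CPM and Mfsd2a at 23.8 CPM, and was led by Fabp4, Cd36, Apln and Aqp1, genes of fatty acid uptake, of angiogenic signalling and of water transport.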
